A study of Homo sapiens with 36 samples.

Results

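Atirmociclib and ribociclib were compared at an equal dose of 2 µM after 72 h in LNCaP cells, a long-established line of human prostate cancer that responds to androgens. The comparison rests on 6 of the 36 RNA sequencing samples of the series, 3 treated with atirmociclib and 3 with ribociclib, taken by their labels, and it is described across all genes. Atirmociclib is classed as a selective CDK4 inhibitor and ribociclib inhibits both CDK4 and CDK6, so the comparison sets a single agent of each class side by side. Whether the equal dose inhibited CDK4 equally was not tested here, and a difference between the agents need not hold for their classes. In the study's kinase assays atirmociclib also inhibited CDK6, CDK9, CDK2, CDK1 and CDK7. The study detected CDK6 in its panel of prostate cancer lines only in PC3 and, less, in DU145 cells. Which kinase lies behind a difference between the agents was not tested. Cells were seeded in 6-well plates, treated 24 h later, and harvested as total RNA, with 3 biological replicates per group per the study's methods. The vehicle group at 72 h (3 samples, labelled with a dose of 2 µM although vehicle contains no agent) gave the untreated level, and the same agents at 24 h, in 6 other samples, gave an earlier reading. Fewer cells were seeded per well for the 72 h harvest than for the 24 h harvest, so time and density cannot be told apart. All groups are a single cell line with no genetic change between them, and the replicate number is given in the labels as a batch.

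CDK4 and CDK6 bind D-type cyclins and phosphorylate the retinoblastoma protein, which then releases E2F transcription factors and lets a cell enter S phase. Blocking these kinases keeps the retinoblastoma protein active, so that cells stop in G1 and transcripts that are made in S phase and mitosis become scarce in the population. In prostate cancer cells androgens drive both luminal genes such as KLK3 and part of the growth programme. Bulk RNA measures a mixed population, in which fewer cells in a phase and less RNA per cell cannot be told apart.

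Values are normalised counts as deposited, and a difference is the log2 difference of the group means of log2(normalised count + 1), atirmociclib minus ribociclib, with its standard error. Summed normalised counts were 22577368 to 22692555 in the atirmociclib libraries and 21549976 to 21903096 in the ribociclib libraries. Of 16341 tested genes, 104 were called lower (0.636%) and 34 higher (0.208%) with atirmociclib, at an adjusted p ≤ 0.05 and a log2 difference of at least 1. By the adjusted p alone 711 genes were lower (4.35%) and 789 higher (4.83%), and with library totals set equal these counts became 1167 lower and 395 higher. The median over all tested genes was 0.01. The errors and p-values describe the spread between replicate libraries, pooled over the 18 libraries (6 groups) of 72 h. Against the shared vehicle libraries, atirmociclib had 1232 called genes and ribociclib 733. The 6 libraries separated fully in 102 of the 104 lower and in all 34 higher calls, beside 1845 (11.3%) and 2245 (13.7%) of all tested genes in the 2 directions. The calls were chosen from these same libraries, and that choice by itself favours separation, so it adds no support to them. Of the lower calls, 35 belonged to lists of replication-dependent histones, mitosis or DNA replication, and 69 to none of the 3. These lists held 52, 81 and 55 of the 16341 tested genes.

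**Figure D1:**
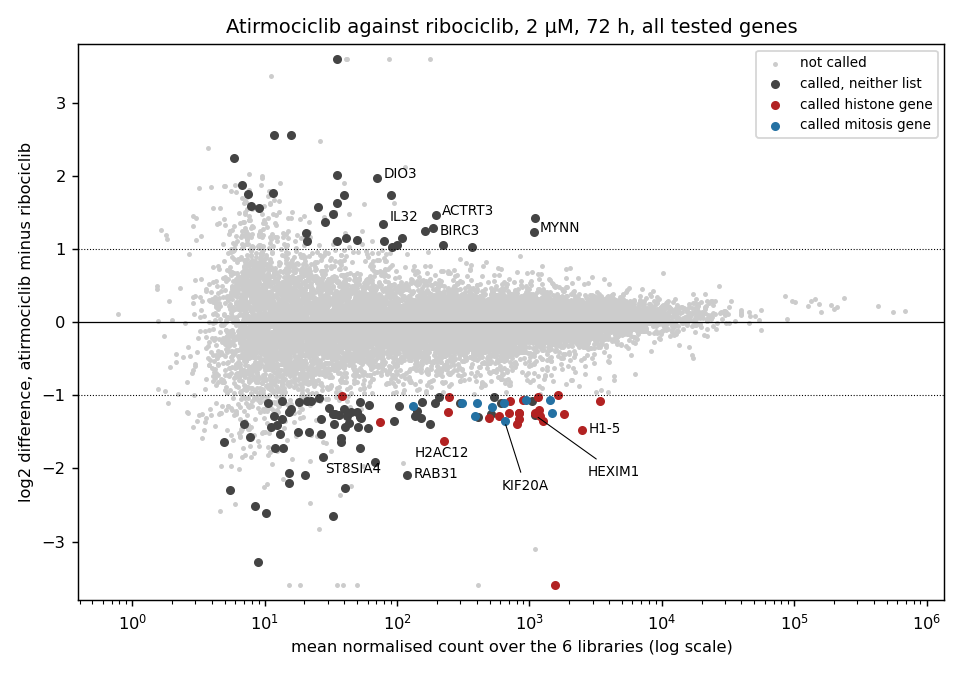
Log2 difference between atirmociclib and ribociclib at 72 h (vertical axis) against the mean normalised count over the 6 libraries (horizontal axis, log scale) for the 16341 tested genes. The dotted lines mark a log2 difference of 1 in each direction and 13 genes beyond 3.6 are drawn at that limit. Called histone genes (red) lie below -1, and the called genes outside both lists (dark grey) spread over low and middle counts.

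Replication-dependent histone genes were the group with the lowest median. These genes supply histone proteins during S phase and their messages are degraded when DNA synthesis ends. Of 52 tested members, 44 were lower with atirmociclib and 24 of these were called, with a median of -0.995. The median against vehicle was -2.32 for atirmociclib and -1.23 for ribociclib. In every library of each group, 44 of the 52 genes were ordered vehicle, then ribociclib, then atirmociclib from high to low, beside 740 of all 16341 tested genes (4.53%).

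H1-5, a linker histone gene on chr6:27866792-27867588, had 10804, 11189.5 and 11465 normalised counts with vehicle, 3694, 3778 and 3500.3 with ribociclib and 1224, 1318 and 1420.1 with atirmociclib. The 3 groups did not overlap, and the difference between the agents was -1.47 ± 0.05, adjusted p = 2.6e-12. H1-2, another linker histone gene, had 4660.4, 4839 and 4415 with ribociclib and 2086, 2143 and 2375 with atirmociclib (-1.08 ± 0.05, adjusted p = 5.4e-10). Among the core histones, H2AC12 had 296, 401 and 325 with ribociclib and 123, 101 and 104 with atirmociclib (-1.62 ± 0.14, adjusted p = 4.2e-07). These 3 genes each left the agents' libraries apart. H2BC17 fell from a mean of 1162 ± 94.3 to 442 ± 34.3 (SD, n = 3; -1.39 ± 0.08, adjusted p = 8.8e-10). H2AC16 (-1.32 ± 0.07), H3C2 (-1.26 ± 0.07) and H4C1 (-1.36 ± 0.17) were lower too. By class, all 3 tested H1 genes were lower, with 14 of 15 H2A, 12 of 14 H2B, 8 of 11 H3 and 7 of 9 H4 genes, and the class medians ran from -1.08 for H2A and H1 to -0.86 for H2B. Of the 52 genes 41 lie on chromosome 6 and 11 on chromosome 1.

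Some histone genes exist as near-identical copies between which reads may be split. H4C14 had 8.63, 1319.8 and 13.6 with atirmociclib and 1982, 1956 and 4045 with ribociclib, while its copy H4C15 had 2424, 892 and 2327 against 3215, 4226 and 589, so the fitted H4C14 difference of -5.46 ± 1.15 is uncertain. Their sum, an alternative chosen after seeing the data, was 2432, 2212 and 2341 with atirmociclib and 5196, 6183 and 4634 with ribociclib, a difference of -1.19 ± 0.08, adjusted p = 1.4e-08. Without the 14 tested histone genes that share at least 100 bases at 98% identity with another gene, 35 of 38 were lower, 21 of them called, with a median of -1.02. The 3 others were H3C6, H2BC3 and H3C3, of which H2BC3 and H3C3 were below 12 normalised counts in every library of both agents.

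Promoter sequence was read from RefSeq (GRCh38.p14) as the 250 bases before the annotated start, for the genes that moved together most. The motif CCAAT, searched on both strands, was present in 40 of the 47 tested histone genes with a RefSeq window (85.1%), beside 41.4% of the 11639 tested genes with one and 32.01% of all 35116 windows. The letters TATAAA, on both strands, were present in 34 of the 47 (72.3%), beside 8.36% of tested genes and 10.7% of all windows. The divergent pair H2AC17 and H2BC17 share 239 bases of these windows on opposite strands, and H2AC17 differed by -1.29 ± 0.09, close to H2BC17. The following show H1-5 (chr6:27867589-27867838, minus strand) and H2AC17 (chr6:27893186-27893435, minus strand), both written 5′ to 3′. Capitals mark CCAAT on either strand. They also mark TATAAA on either strand, and likewise TTTGAA on either strand. The E2F forms searched, again on both strands and in capitals, were TTGGCGC first, then the form TTCGCGC next, then a further form TTCCCGC after it, and as the last form TTGCCGC.
H1-5: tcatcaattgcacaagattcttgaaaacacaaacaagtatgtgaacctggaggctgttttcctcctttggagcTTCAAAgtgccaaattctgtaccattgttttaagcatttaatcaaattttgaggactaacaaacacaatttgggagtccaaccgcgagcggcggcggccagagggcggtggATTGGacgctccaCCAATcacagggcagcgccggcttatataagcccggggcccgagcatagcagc
H2AC17: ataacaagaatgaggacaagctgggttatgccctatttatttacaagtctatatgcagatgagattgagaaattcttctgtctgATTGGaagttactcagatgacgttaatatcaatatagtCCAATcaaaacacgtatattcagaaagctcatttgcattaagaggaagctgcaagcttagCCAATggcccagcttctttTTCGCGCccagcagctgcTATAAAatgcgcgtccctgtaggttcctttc

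Mitotic genes formed the next group, with 70 of 81 tested members lower, 10 of them called, and a median of -0.64. CCNA2, cyclin A2 of S and G2 phase, had 1458, 1539 and 1499 with vehicle, 719, 726 and 709.8 with ribociclib and 315, 314 and 338 with atirmociclib. The atirmociclib libraries lay below all ribociclib libraries and these below all vehicle libraries (-1.15 ± 0.07, adjusted p = 1.8e-09). KIF20A, a kinesin of the central spindle, had 1025, 928 and 854 with ribociclib and 329.8, 403 and 362 with atirmociclib (-1.36 ± 0.09, adjusted p = 1.5e-08). CDCA3, a trigger of mitotic entry, fell from 551 ± 29.8 to 226 ± 16.7 (SD, n = 3; -1.28 ± 0.08, adjusted p = 2.8e-09). MKI67, the Ki-67 proliferation antigen, fell from 4593 ± 246 to 2409 ± 200.3 (SD, n = 3; -0.93 ± 0.06, adjusted p = 2.3e-09). HMGB2, a chromatin protein of dividing cells and a member of the senescence list, differed by -1.08 ± 0.06, and LMNB1, lamin B1, by -0.60 ± 0.06. FOXM1, the factor that drives G2 and mitotic genes, had 1809.5, 1828 and 1734 with ribociclib and 1307, 1391 and 1484 with atirmociclib, a smaller difference of -0.36 ± 0.05, adjusted p = 0.00013.

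Promoter windows of the mitosis list also held CCAAT often, in 52 of 69 genes (75.4%), but TATAAA in 4 (5.80%). The letters TTTGAA, the core of an element known from mitotic promoters, were present in 34 of the 69 (49.3%), beside 11.9% of tested genes and 13.3% of all windows. They were also in 15 of 47 histone windows (31.9%) and 2 of 46 DNA replication windows (4.35%). Among the lower calls in none of the 3 lists, 12 of 50 held them (24%). An E2F form was present in 25 of the 46 DNA replication genes with a window (54.3%), beside 20.9% of tested genes and 10.9% of all windows. Such a form was also in 15 of 47 histone windows (31.9%) and 18 of 69 mitosis windows (26.1%). The windows of CCNA2 (chr4:121823884-121824133, minus strand) and KIF20A (chr5:138178862-138179111, plus strand) are shown with the same letters in capitals. Both held CCAAT and none of the other letters searched, TTTGAA included.
CCNA2: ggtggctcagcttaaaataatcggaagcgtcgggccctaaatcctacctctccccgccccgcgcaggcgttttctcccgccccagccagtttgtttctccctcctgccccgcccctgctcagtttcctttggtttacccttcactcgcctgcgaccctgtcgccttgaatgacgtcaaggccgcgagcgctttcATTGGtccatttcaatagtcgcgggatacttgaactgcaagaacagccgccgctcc
KIF20A: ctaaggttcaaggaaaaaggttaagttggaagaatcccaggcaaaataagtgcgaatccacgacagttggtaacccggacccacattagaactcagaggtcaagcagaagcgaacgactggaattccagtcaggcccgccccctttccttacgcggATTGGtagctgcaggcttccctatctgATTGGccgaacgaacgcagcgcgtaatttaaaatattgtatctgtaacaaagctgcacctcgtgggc

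DNA replication genes differed less than histone or mitotic genes. Of 55 tested members 34 were lower and 1 higher, the latter in no fit without 1 library, with a median of -0.34, and CLSPN, claspin of the replication checkpoint, was the 1 called member. CLSPN had 701, 729 and 731 with ribociclib and 413, 323 and 335 with atirmociclib (-1.02 ± 0.10, adjusted p = 2.7e-06). Without atirmociclib replicate 2 its difference was -0.95, short of the fold threshold of a call. PCNA, the sliding clamp of DNA polymerase, fell from 1629 ± 60.98 to 1065 ± 76.3 (SD, n = 3; -0.61 ± 0.06, adjusted p = 1.6e-06). TYMS, thymidylate synthase, differed by -0.79 ± 0.09 and TK1, thymidine kinase, by -0.50 ± 0.06. In the homologous recombination and Fanconi anaemia list 9 of 38 were lower and 1 higher, with a median of -0.23. Its members CHEK1 (-0.83 ± 0.13), EXO1 (-0.84 ± 0.16), FANCI (-0.53 ± 0.11) and BRCA1 (-0.41 ± 0.07) were lower, and without atirmociclib replicate 3 the list had 5 lower.

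The drug targets themselves were measured without a passing difference. CDK4 had 2508, 2228 and 2125 with atirmociclib and 2220.4, 2238 and 2069 with ribociclib, a difference with a 95% interval of -0.07 to 0.20. CDK6 had 17.5, 15.7 and 26.8 with atirmociclib against 19.1, 19.96 and 14.7 with ribociclib, and its interval of -0.70 to 0.95 is wide at these low counts. CCND1, cyclin D1, had 11396, 11642 and 12135 with atirmociclib against 10327, 10628 and 11047 with ribociclib, above the vehicle values of 7840.5, 8064 and 7657 in every library, and differed between the agents by 0.14 ± 0.05, adjusted p = 0.087. RB1, the retinoblastoma gene, differed by 0.09 ± 0.07 with an interval of -0.06 to 0.24. Across the whole cyclin D, CDK4/6 and RB list of 28 tested genes, 7 were lower and 1 higher, with a median of -0.13. Lower members were CDKN2C, the CDK4 and CDK6 inhibitor p18, with 133, 131 and 108 under ribociclib and 57.7, 73.05 and 57.9 under atirmociclib (-0.97 ± 0.13, adjusted p = 9.1e-05), and CCNE2, cyclin E2, with 299, 199 and 168 under ribociclib against 101, 116 and 114 under atirmociclib (-0.96 ± 0.20, adjusted p = 0.0039). RBL1, the relative p107 of the retinoblastoma protein, differed by -0.78 ± 0.12 and CDK2, the partner of cyclin E, by -0.37 ± 0.07. MYC, a growth-promoting transcription factor, had an interval of -0.17 to 0.03.

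**Figure D2:**
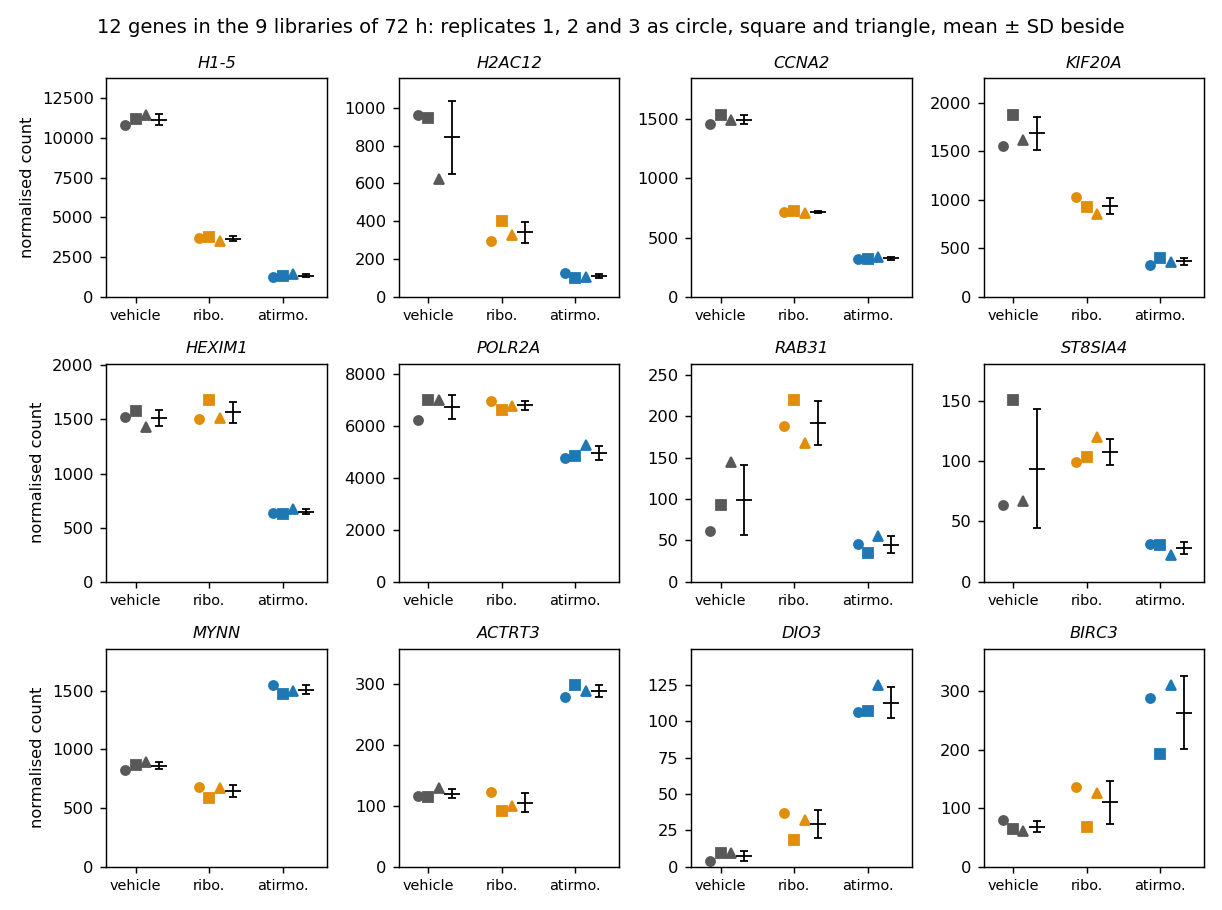
Normalised count (vertical axis, from 0) of 12 genes in the 9 libraries of vehicle, ribociclib 2 µM and atirmociclib 2 µM at 72 h; symbols are replicates and the bar beside them is the mean ± SD. H1-5, H2AC12, CCNA2 and KIF20A step down from vehicle to ribociclib to atirmociclib, whereas HEXIM1 and POLR2A were near the vehicle level with ribociclib and lower with atirmociclib.

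HEXIM1 showed a different shape, with ribociclib at the vehicle level. HEXIM1 holds the elongation kinase P-TEFb (CDK9 with cyclin T) inactive together with the 7SK RNA, and its gene lies on chr17:45148475-45152099. It had 1524, 1578 and 1431 normalised counts with vehicle, 1499.7, 1681 and 1516 with ribociclib and 637, 629 and 673 with atirmociclib. The atirmociclib libraries lay apart from both other groups, while vehicle and ribociclib overlapped. The difference between the agents was -1.27 ± 0.07, adjusted p = 5.6e-10, that of atirmociclib from vehicle -1.22 ± 0.07, adjusted p = 4e-11, and that of ribociclib from vehicle 0.05 ± 0.07, adjusted p = 0.61. At 24 h, in other libraries, HEXIM1 had 1157, 1185 and 1177 with ribociclib and 427, 441 and 497 with atirmociclib (-1.37 ± 0.06, adjusted p = 6.5e-10). At the lower dose of 1 µM for 72 h, atirmociclib libraries had 1052, 1107 and 991. POLR2A, the largest subunit of RNA polymerase II, had 6215, 6987 and 7001 with vehicle, 6967, 6613 and 6784 with ribociclib and 4766, 4832 and 5269 with atirmociclib (-0.46 ± 0.05, adjusted p = 6.7e-06), and at 24 h differed by -0.43 ± 0.04. As with HEXIM1, its ribociclib libraries overlapped vehicle and its atirmociclib libraries overlapped neither.

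In the whole list of P-TEFb and transcription elongation, 4 of 40 tested genes were lower and 2 higher, with a median of -0.03. The other lower members were MEPCE, which caps the 7SK RNA (-0.27 ± 0.05), and ELL2, an elongation factor (-0.36). The higher members were CDK19, a Mediator kinase (0.30 ± 0.05), and CDK9 (0.36), and ELL2 and CDK9 are named after their values were seen. HEXIM1 overlaps 520 exon bases of HEXIM2-AS1 on the opposite strand, and whether strand was used in counting is not given in the sources used here. The HEXIM1 window (chr17:45148225-45148474, plus strand) held CCAAT and TATAAA and none of the other letters searched.
HEXIM1: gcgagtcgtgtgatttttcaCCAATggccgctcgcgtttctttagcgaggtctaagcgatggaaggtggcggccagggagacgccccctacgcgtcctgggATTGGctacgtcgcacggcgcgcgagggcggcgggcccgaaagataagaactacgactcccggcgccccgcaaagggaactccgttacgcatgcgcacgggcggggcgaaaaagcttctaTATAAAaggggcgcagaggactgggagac

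Outside the 3 cell cycle lists, 40 of the 69 lower calls had a ribociclib mean above the vehicle mean, and in 32 of them atirmociclib was also below vehicle, and in all 35 calls inside the lists ribociclib was below vehicle. The calls were chosen for a lower value with atirmociclib than with ribociclib. Among all 7926 tested genes with a lower mean in atirmociclib than ribociclib, 47.8% had ribociclib above vehicle and 17.6% had vehicle between the agents. These genes include small differences, whereas the calls had a log2 difference of at least 1. A wider gap leaves more room for vehicle between the agents, so the shares are not matched. RAB31, a small GTPase of vesicle transport, had 60.7, 92.5 and 144 with vehicle, 188, 219.6 and 168 with ribociclib and 45.2, 34.6 and 54.7 with atirmociclib. The 3 groups were apart, with vehicle between the agents (-2.09 ± 0.28, adjusted p = 7.9e-05). ST8SIA4, a polysialyltransferase, had 99.4, 103 and 119.8 with ribociclib and 30.8, 30.3 and 22.5 with atirmociclib (-1.92 ± 0.33, adjusted p = 0.00082), and vehicle spread from 63.6 to 151. MAK, a male germ cell-associated kinase in the androgen response list, had 70.8, 93.2 and 60.6 with ribociclib and 24.9, 27.3 and 28.2 with atirmociclib (-1.43 ± 0.24, adjusted p = 0.00054). SLC27A3, a fatty acid transport protein, had 219, 219 and 339.8 with ribociclib and 116, 79.3 and 95.4 with atirmociclib (-1.40 ± 0.19, adjusted p = 9.1e-05). DAPK1, a death-associated kinase, had 91.3, 112 and 62.7 with ribociclib and 37.2, 21.04 and 37.6 with atirmociclib (-1.45 ± 0.40, adjusted p = 0.029), and lost its call when atirmociclib replicate 2 or ribociclib replicate 1 or 2 was left out (adjusted p from 0.077 to 0.12). Their counts were low, and their standard errors exceed that of H1-5.

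Genes higher with atirmociclib were fewer, and none of the 34 was in a list. The share of all tested genes that lie in a list was not counted, so this absence is not read as a result. With atirmociclib 33 of the 34 had a mean above vehicle, and with ribociclib 14, beside 49.3% of all tested genes with ribociclib above vehicle. The calls were chosen for a higher value with atirmociclib than with ribociclib. That choice by itself favours an atirmociclib mean above vehicle. DIO3, the deiodinase that inactivates thyroid hormone, had 3.83, 9.27 and 9.75 with vehicle, 37.1, 18.4 and 31.99 with ribociclib and 107, 107 and 125 with atirmociclib (1.97 ± 0.31, adjusted p = 0.00031). Its 3 groups did not overlap. IL32, a proinflammatory cytokine, had 12.02, 9.49 and 5.81 with vehicle, 49.5, 39.1 and 42.5 with ribociclib and 117, 132 and 88.9 with atirmociclib (1.33 ± 0.23, adjusted p = 0.0009). BIRC3, an inhibitor of apoptosis and a target of NF-κB, had 136, 68.2 and 125 with ribociclib and 287, 192 and 310.3 with atirmociclib (1.28 ± 0.23, adjusted p = 0.0014). NOS3, endothelial nitric oxide synthase, had 84.1, 54.6 and 67.6 with ribociclib and 149, 150.0 and 154 with atirmociclib (1.14 ± 0.26, adjusted p = 0.0071). KLF8, a Krüppel-like repressor (1.10 ± 0.33, adjusted p = 0.045), and ARHGAP42, a GTPase-activating protein (1.05 ± 0.23, adjusted p = 0.0066), passed too, and KLF8 lost its call without atirmociclib replicate 2 or 3 or any 1 ribociclib replicate. Without ribociclib replicate 2 the differences of BIRC3 (0.97) and NOS3 (0.99) were under the fold threshold of 1. That of ARHGAP42 was under it without atirmociclib replicate 1 (0.90). PCDH11X and PCDH11Y, protocadherins that share 5200 near-identical bases, differed by 1.25 ± 0.18 and 1.43 ± 0.14, and reads between them are uncertain.

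MYNN and ACTRT3 adjoin each other on chromosome 3 and both were higher, on opposite strands. MYNN, a zinc finger protein (chr3:169773396-169789716), had 828, 867 and 888 with vehicle, 681, 583 and 673 with ribociclib and 1547, 1472 and 1499 with atirmociclib. Atirmociclib lay above vehicle and ribociclib below it in every library (1.22 ± 0.07, adjusted p = 1.9e-09). ACTRT3, an actin-related protein (chr3:169766921-169769561), had 117, 114 and 129 with vehicle, 123, 92.2 and 100.1 with ribociclib and 278, 298 and 289 with atirmociclib (1.46 ± 0.14, adjusted p = 8.7e-07), with vehicle and ribociclib overlapping. The non-coding genes ENSG00000269889, between them, and ENSG00000270096, beyond MYNN, were called too (1.73 ± 0.22 and 1.74 ± 0.26) and are named after their values were seen. ENSG00000269889 had 38.8, 41.9 and 41.01 with ribociclib and 115, 135 and 166 with atirmociclib. Of the other tested genes around them, SEC62 passed the adjusted p (0.22 log2, adjusted p = 0.02). TERC (0.07), LRRC31 (0.17), ENSG00000270135 (0.82) and FHL1P1 (1.48, adjusted p = 0.23) did not, and the last 2 had means under 20 normalised counts with both agents. At 24 h MYNN had 754, 782 and 707 with vehicle, 1168, 1267 and 1271 with ribociclib and 1568, 1694 and 1669.7 with atirmociclib. The difference between the agents was 0.41 ± 0.07, adjusted p = 0.002. Both agents thus lay above vehicle at 24 h, whereas ribociclib lay below it at 72 h. From 24 h to 72 h the MYNN mean went from 1235 to 646 with ribociclib and from 1644 to 1506 with atirmociclib. ACTRT3 means at 24 h were 95.7 with vehicle, 270.5 with ribociclib and 352 with atirmociclib.

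Androgen response genes moved in both directions between the agents. KLK3, prostate-specific antigen, had 20972, 20799 and 19802 with vehicle, 47194, 48315 and 51463 with ribociclib and 48388, 52456 and 54148 with atirmociclib, and its difference between agents had a 95% interval of -0.02 to 0.17. TMPRSS2, an androgen-induced protease, had 5129, 4504 and 4205 with vehicle, 15663, 14764 and 17923 with ribociclib and 18747, 20755 and 20223 with atirmociclib (0.31 ± 0.07, adjusted p = 0.0065). KLK2 went the other way, with 6376, 5537 and 6652 under ribociclib and 4451, 4881 and 5183 under atirmociclib (-0.35 ± 0.07, adjusted p = 0.0017), as did ACP3, prostatic acid phosphatase (-0.57 ± 0.12, adjusted p = 0.0058). Of 87 androgen response genes 14 were lower and 9 higher between the agents, with a median of -0.05 (9 lower without atirmociclib replicate 3), while each agent had 45 higher than vehicle, beside 20.9% and 15.5% of all tested genes for atirmociclib and ribociclib. STEAP1 (0.37 ± 0.05) and ADAMTS1 (0.27 ± 0.03) were higher, and IQGAP2 (-0.65 ± 0.10) and PLPP1 (-0.26 ± 0.04) lower. Of 10 luminal prostate markers 4 were higher and 2 lower, FOLH1 by 0.29 ± 0.03, with 2 higher without ribociclib replicate 1 or 3. Of 5 tested UGT2B genes, which inactivate androgens and were below vehicle with both agents, 2 were higher with atirmociclib, UGT2B17 (0.35 ± 0.06, adjusted p = 0.0011) and UGT2B10 (0.70 ± 0.21, adjusted p = 0.045), and UGT2B10 missed the adjusted p when any 1 of the 6 libraries was left out (0.072 to 0.127).

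Lipid synthesis genes moved in both directions. In the fatty acid list 6 of 17 were higher and 2 lower, the latter 1 in every fit without 1 library other than atirmociclib replicate 2. SCD, the stearoyl-CoA desaturase, had 22518, 24258 and 23592 with vehicle, 24043, 19863 and 23576 with ribociclib and 28689.9, 32920.1 and 33516 with atirmociclib (0.50 ± 0.06, adjusted p = 2.8e-05). FASN, fatty acid synthase, was at 95594 ± 1481 with atirmociclib and 74357 ± 1523 with ribociclib (SD, n = 3; 0.36 ± 0.04, adjusted p = 4.4e-06), against 94688 ± 4448 with vehicle. ACSL1 (0.46 ± 0.06), which activates fatty acids, and ME1 (0.45 ± 0.06), which makes NADPH, were higher too. ACACB, the acetyl-CoA carboxylase of mitochondria, was called lower, with 799, 1074 and 642 under ribociclib and 380.4, 458 and 314 under atirmociclib (-1.11 ± 0.17, adjusted p = 0.00024), and is named after its values were seen. In cholesterol synthesis 2 of 24 were higher, FDFT1 (0.38 ± 0.06) and DHCR7 (0.29 ± 0.05), and 2 lower, PMVK (-0.49 ± 0.09) and ACAT2 (-0.32 ± 0.07). Over all tested genes 4.83% were higher and 4.35% lower, and counts of 2 among 24 are too small to read as a shift of the cholesterol list.

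Several lists of abundant transcripts held more members higher than lower by the adjusted p, mostly by small amounts that depended on the scaling of the libraries. Of 23 endoplasmic reticulum chaperone and unfolded protein response genes 12 were higher, among them HSPA5 (0.25 ± 0.03), CALR (0.20 ± 0.03), CANX (0.21 ± 0.04) and HYOU1 (0.21 ± 0.04), and with library totals set equal 5 were. Of 13 mitochondrially encoded genes 9 were higher, such as MT-CO1 (0.22 ± 0.03) and MT-ND4 (0.33 ± 0.05), and 0 of them with quantile normalisation by limma, which gives the most abundant genes nearly the same value in every library. These genes held 8.33% to 8.66% of the summed counts with atirmociclib and 7.31% to 7.76% with ribociclib. Of 79 cytosolic ribosomal protein genes 12 were higher, among them RPLP1 (0.20 ± 0.04) and RPS14 (0.20 ± 0.04), and 2 with equal totals. Leaving out 1 library gave 6 (without atirmociclib replicate 2), 7 (without ribociclib replicate 1 or 3) or 22 (without ribociclib replicate 2) of them higher. Of 73 nuclear-encoded respiratory chain genes 8 were higher, among them ATP5F1B (0.22 ± 0.04) and ATP5F1D (0.31 ± 0.06), and 3 with equal totals. Of these, 5 were higher without atirmociclib replicate 1, 4 without ribociclib replicate 3 and 15 without ribociclib replicate 2. In the MYC and ribosome biogenesis list 5 of 60 were higher, among them POLR1E (0.41 ± 0.07) and BOP1 (0.35 ± 0.06), and 3 with equal totals. This list did not shift as a whole, with a median of -0.001, 30 members below 0 and 30 above. Of all tested genes 4.83% were higher. Of 19 heat shock genes 4 were higher, such as HSP90AB1 (0.14 ± 0.03). In the lysosome list 8 of 44 were higher, such as CTSF, a cathepsin (0.54 ± 0.07), and LAMP1 (0.26 ± 0.05), and 3 lower, such as GUSB (-0.47 ± 0.06), with 5 higher when totals were set equal.

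Among stress and signalling lists few members passed. Of 47 immediate early and short-lived transcripts 6 were higher and 2 lower. JUN, an AP-1 subunit, had 1170.1, 1155 and 1288 with ribociclib and 1763, 1715 and 1751 with atirmociclib (0.53 ± 0.06, adjusted p = 5.9e-06), RHOB differed by 0.41 ± 0.04, TNFAIP3, a brake on NF-κB, by 0.83 ± 0.20, and DUSP4, a phosphatase of MAP kinases, by -0.81 ± 0.13. With library totals set equal 3 of the list were higher, and without atirmociclib replicate 2 there were 2, TNFAIP3 missing the adjusted p (0.054). The lower count was 1 without any 1 atirmociclib replicate or ribociclib replicate 1. Of 32 p53 targets 4 were higher and 1 lower, with GDF15, a stress cytokine, at 7360.3, 6425 and 9888 with ribociclib and 10784, 13031 and 13414 with atirmociclib (0.67 ± 0.13, adjusted p = 0.0018). TP53INP1 (0.43 ± 0.03) and the death receptor FAS (0.76 ± 0.21) were higher and DDB2 (-0.44 ± 0.10) lower. FAS missed the adjusted p without any 1 library other than ribociclib replicate 1 (0.055 to 0.11), and DDB2 without atirmociclib replicate 1 (0.052), and the list had 2 higher without atirmociclib replicate 2 or 3 or ribociclib replicate 2. In the ATF4 list 3 of 27 were higher, DDIT4, SESN2 and SLC7A11, each by under 0.3, and ATF5 was lower (-0.32 ± 0.10). DDIT4, SESN2 and SLC7A11 each missed the adjusted p without atirmociclib replicate 2 or 3 or ribociclib replicate 2, and ATF5 missed it without any 1 library other than ribociclib replicate 3 (0.058 to 0.206). Of 20 NRF2 targets 3 were higher, ME1, TXNRD1 (0.27 ± 0.07) and SLC7A11 (0.26 ± 0.08), and 1 without atirmociclib replicate 1 or ribociclib replicate 3. SLC7A11 missed the adjusted p without any 1 library other than ribociclib replicate 1 (0.071 to 0.188). Of 48 interferon and antigen presentation genes 2 were higher, among them IFIT2 (0.85 ± 0.26), and 2 lower, OAS3 (-0.85 ± 0.10) and BST2 at under 20 counts. IFIT2 missed the adjusted p without any 1 library other than atirmociclib replicate 1 (0.067 to 0.184), and BST2 without atirmociclib replicate 1 or ribociclib replicate 1 or 2 (0.066 to 0.129).

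In the senescence and secretory list 8 of 27 genes in the table were tested, 3 were lower (HMGB2, LMNB1 and HMGB1) and 1 higher (GDF15), and 10 were at or under 3 normalised counts in all 6 libraries. Of 41 hypoxia-inducible genes 1 was higher, DDIT4, which missed the adjusted p without atirmociclib replicate 2 or 3 or ribociclib replicate 1 or 2 (0.061 to 0.127). Of 5 metallothionein list genes 1 was higher, the zinc exporter SLC30A1 (0.32 ± 0.08), which missed it without atirmociclib replicate 1 or ribociclib replicate 3. Of 17 BCL2 family genes 0 passed by limma's adjusted p and 3 had an unadjusted p under 0.05, and of 6 aryl hydrocarbon receptor targets 0 passed and 0 had an unadjusted p under 0.05.

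Cell type markers were read over their whole lists. The 10 luminal markers summed to 167538 to 175237 normalised counts with atirmociclib and 158012 to 165342 with ribociclib. The basal defining markers KRT5 and TP63 were at 0 in all 6 libraries, the 5 basal markers summed to under 200 in each, and neither of 2 tested passed (unadjusted p under 0.05 for 0). The 15 fibroblast, immune and endothelial markers summed to 1245 to 1359 with atirmociclib and 923 to 1179 with ribociclib, 6 were at 0 including PECAM1 and CDH5 of endothelium, and 1 of 6 tested passed, VWF (0.76 ± 0.19, adjusted p = 0.015), which missed it without atirmociclib replicate 2 or ribociclib replicate 2 (0.051 and 0.081). Of the 7 neuroendocrine markers CHGA, CHGB and INSM1 were among those at 0, and SYP (-1.23 ± 0.33) was lower at under 30 counts and missed the adjusted p without atirmociclib replicate 2 or ribociclib replicate 1 or 2 (0.058 to 0.096).

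The called genes shared some features of structure. Of 87 protein-coding lower calls 26 (29.9%) have a single exon in the canonical transcript, beside 2.57% of 12924 uncalled protein-coding genes, and without the histones 2 of 63 do. Of the 104 lower calls 27 lie on chromosome 6, and 4 of 80 without the histones. Higher calls had a median of 37.8 normalised counts and lower calls of 60.9, against 392 for uncalled genes, and lower calls without the histones had a median of 40.5. Median GC content was 47.0% in higher, 52.6% in lower and 48.6% in uncalled genes, and 47.8% in lower calls without the histones. Exons of 43 of the 138 called genes overlap a gene on the opposite strand, among them KIF20A, CCNA2 and MYNN, and 12 have a near-identical stretch elsewhere.

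The same contrast at 24 h used 6 other libraries and called 68 of 16137 tested genes (0.421%), 61 lower and 7 higher. By the adjusted p alone, 2.81% of genes were lower and 1.83% higher at 24 h. Of the 101 genes called lower at 72 h and tested at 24 h, 86 had a negative difference at 24 h and 39 were lower by the adjusted p, 23 of them called. Of the 33 higher calls tested, 23 had a positive difference at 24 h and 3 were higher by the adjusted p, with a median of 0.21 against 1.44 at 72 h. Histone genes at 24 h were lower in 42 of 51, mitotic genes in 43 of 81 and DNA replication genes in 27 of 55, with medians of -0.77, -0.51 and -0.39. H1-5 had 934, 950.2 and 907 with ribociclib and 188, 219 and 192 with atirmociclib at 24 h (-2.22 ± 0.12).

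The difference between the agents changed from 24 h to 72 h in 27 of 16850 tested genes (0.160%), 19 upward and 8 downward. PTTG1, securin of the anaphase checkpoint, had 408, 392 and 348 with ribociclib and 634, 445 and 485 with atirmociclib at 24 h, against 738, 1083 and 831 with ribociclib and 411, 415 and 390.4 with atirmociclib at 72 h. Atirmociclib was above ribociclib at 24 h and below it at 72 h, in every library (-1.54 ± 0.15, adjusted p = 2.9e-07 for the change). BIRC5, survivin, overlapped between agents at 24 h (489, 415 and 448 against 527, 499 and 397) and not at 72 h (1274, 1371 and 1170.3 against 484, 727 and 625), a change of -1.14 ± 0.23, adjusted p = 0.0066. CCNE2 went the other way, with a difference of -2.31 ± 0.25 at 24 h and -0.96 ± 0.20 at 72 h (1.35 ± 0.33, adjusted p = 0.034). NMU, the peptide neuromedin U, differed by 0.56 ± 0.23 at 24 h and -0.92 ± 0.27 at 72 h. PCDH11X differed by -0.19 ± 0.20 and 1.25 ± 0.18 and its copy PCDH11Y likewise, and ACTRT3 by 0.38 ± 0.14 and 1.46 ± 0.14.

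**Figure D3:**
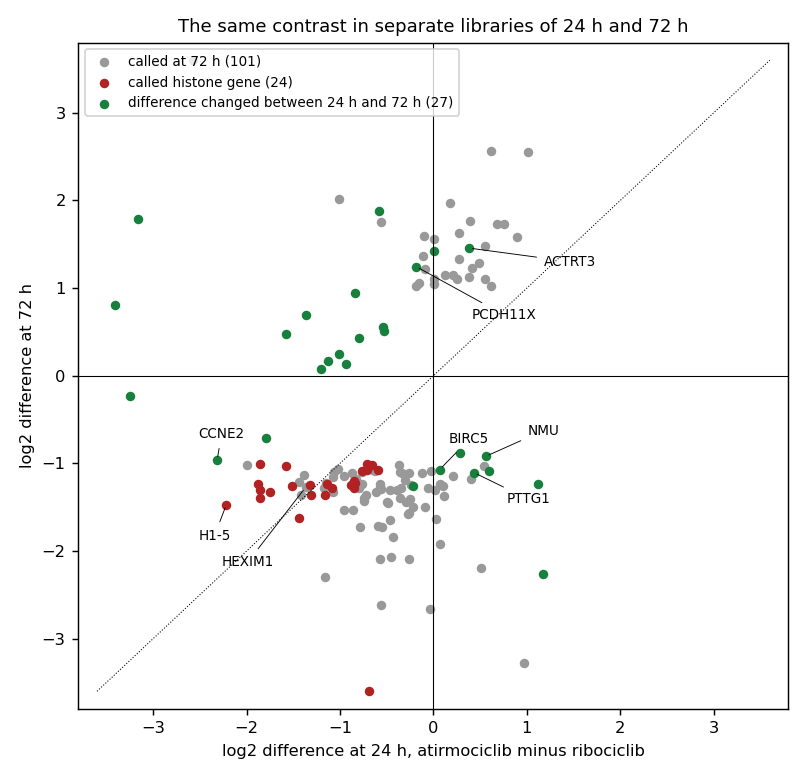
Log2 difference between atirmociclib and ribociclib at 24 h (horizontal axis) and 72 h (vertical axis), measured in separate libraries, for 152 genes called at 72 h or in the change between times and tested at both. The dotted line marks equal differences and 2 genes beyond 3.6 are drawn at that limit. Histone genes (red) are negative at both times, whereas PTTG1 and BIRC5 (green, changed between times) are positive or near 0 at 24 h and negative at 72 h.

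Against vehicle at 72 h, 48 of the 52 histone genes were lower with atirmociclib and 46 with ribociclib, and 80 and 72 of 81 mitotic genes, beside 19.6% and 15.4% of all tested genes. Over all tested genes, these groups included, most differences between the agents could be bounded. For 13066 of the 16341 tested genes (80.0%) the 95% interval of the difference between the agents lay within 1 log2 unit of 0, and for 9193 (56.3%) within 0.5.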

How the data were processed

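LNCaP RNA was sequenced and processed by the authors, who aligned reads with STAR 2.6.1d and, per the labels' processing notes, used DESeq2. The deposited file holds 1 normalised count per gene and library, a signal that is not whole, so no count model was run here. Genes that reached 10 in 3 or more of a time point's 18 libraries (6 groups) were fitted together by limma 3.58.1 in R 4.3.3 on log2(normalised count + 1), with a trended eBayes step and Benjamini-Hochberg adjustment over all tested genes. A gene was called at an adjusted p ≤ 0.05 and a log2 difference of at least 1. The fit was tested on simulated data. Named genes were the 10 called genes per direction with the largest difference and a mean of at least 50, up to 4 passing members of each of 31 lists, 3 genes per direction of the change between times, and 12 genes of the study. Members and lists were chosen with earlier results of these data known. Exon overlaps used bedtools 2.31.1 and near-identical stretches blastn 2.17.0. Read depth before normalisation is unknown. Whether counting used strand is not given in the sources used here. Alternatives covered pseudocount, filter, scaling, replicate block and left-out libraries. Some genes that these rules name are not reported here.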

Additional observations from a re-analysis of the deposited data

Results flagged for a closer look

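The difference between atirmociclib and ribociclib was itself tested between 24 h and 72 h, by limma, and passed the adjusted p with a change of at least 1 on the log2 scale in 19 genes upward and 8 downward. Named genes whose difference was more positive at 72 h were PCDH11X by 1.43, its near-identical copy PCDH11Y by 1.43, CCNE2 by 1.35 and ACTRT3 by 1.08. Those whose difference was more negative were PTTG1 with a change of -1.54, NMU with -1.48 and BIRC5 with -1.14. The NMU change missed the adjusted p in 7 of the fits that each left out 1 of the 12 libraries, atirmociclib 24 h replicates 1 and 3, ribociclib 24 h replicate 3, atirmociclib 72 h replicates 1 and 3, and ribociclib 72 h replicates 1 and 2. Time and seeding density cannot be told apart here.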

How the results depend on the processing

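At 72 h, 34 genes were higher and 104 lower. A pseudocount of 8 gave 22 higher, and a mean of at least 100 gave 8 higher and 50 lower. At 24 h these settings gave 4 higher, and 0 higher with 37 lower, and for the change between times the mean filter gave 11 upward and 3 downward. Leaving out 1 library gave 24 to 42 higher and 95 to 105 lower at 72 h, 1 to 9 and 54 to 61 at 24 h (1 higher without ribociclib replicate 1), and 9 to 21 upward and 3 to 8 downward for the change. These totals are not all the same genes. Each such fit at 72 h kept 18 to 24 of the 34 higher calls and 75 to 84 of the 104 lower calls. DNA replication members lower went from 34 to 20 when only the 6 libraries were fitted, with a spread estimated from fewer samples. That fit kept 20 of the 34 higher calls and 71 of the 104 lower calls. With quantile normalisation MT-ND1 was 0.00 and HSP90AA1 -0.00901, and CDK6 ran from -0.0946 without atirmociclib replicate 3 to 0.273 without atirmociclib replicate 2, and was -0.00407 without ribociclib replicate 3. The cause of these changes was not tested. Equal totals shifted the median of all genes to -0.06 and gave 82.7% lower among calls, beside 75.4%. The deviations of same-numbered libraries, not their values, correlated by -0.0022 on average at 72 h, with single pairs from -0.080 to 0.050. At 24 h the average was 0.0018, with pairs from -0.090 to 0.112. No pairing by number was seen on average. The 72 h average for different numbers, 0.0011, is no separate check, because deviations within a group cancel and tie it to the first. The replicate block gave 33 higher and 99 lower at 72 h, 5 and 61 at 24 h, and 18 and 8 for the change. The block ended the adjusted p call of UGT2B10 (0.057), SESN2 (0.052) and SLC7A11 (0.059), and left 5 of 8 respiratory chain and 1 of 3 ATF4 list genes higher.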
